A study of Mus musculus with 30 samples.

Results

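Livers of mice irradiated with 56Fe ions were compared with livers of non-irradiated mice at month 2, which the series dates to day 60 after irradiation. The comparison holds 6 of the 30 RNA-seq libraries of the series, chosen by their labels for treatment and time: 3 irradiated and 3 control, called replicates 1, 2 and 3 of each arm. All mice were males whose strain is labelled C57BL16. The irradiated arm had received 0.2 Gy of 56Fe at 600 MeV/n and the control arm no irradiation, and no other agent or allele is labelled in either arm. RNA came from slices of frozen left liver lobes and was depleted of ribosomal RNA before paired 50-base sequencing. The replicates are labelled as biological; litter, cage and sampling hour are not given in the labels, so p-values measure the spread between samples of a group, taken over all 10 groups of the series, and that spread may be technical. The question was which of the 19685 genes with enough reads differed between the arms. Genes are named by a rule given with the processing, and Mt1 and the others named beyond it were chosen after their values were seen.

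56Fe nuclei are heavy charged particles, part of galactic cosmic rays, and they deposit energy in dense tracks through a tissue. Most of the liver's RNA comes from hepatocytes, which secrete plasma proteins, make glucose during fasting and carry a strong daily clock. Those tasks need many ribosomes and a large endoplasmic reticulum (ER), and their genes follow time of day, feeding and stress hormones.

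Depth was 9828419 to 13680697 counts in irradiated and 12113872 to 14367259 in control libraries. Values below are CPM, reads scaled to a common library size. The libraries read as liver: the summed level of 11 hepatocyte markers was 77874 to 89646 CPM in controls and 65870 to 74798 CPM in irradiated livers, while 3 muscle markers summed to at most 2.68 CPM and 2 exocrine pancreas markers to at most 9.22 CPM. All 11 hepatocyte markers had a log2 fold change below 0, with a median of -0.42; edgeR called 0 of them, and 4 had an unadjusted p under 0.05. The part of this in the ER, ribosomal and metabolic results below was not tested. Composition differed between the arms. Protein-coding genes held 86.9%, 89.2% and 88.2% of counts in irradiated replicates 1, 2 and 3 and 91.4%, 92.9% and 90.7% in control replicates 1, 2 and 3. The nuclear RNA Malat1 held 1.09%, 0.912% and 0.976% against 0.556%, 0.470% and 0.593%. The non-coding locus Gm26917 held 6.93%, 4.79% and 5.23% against 4.76%, 3.32% and 4.01%. The arms did not overlap in any of these 3 shares, and for Gm26917 the lowest irradiated and the highest control library were nearly equal.

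At an adjusted p under 0.05 (edgeR's quasi-likelihood test with Benjamini-Hochberg adjustment), 860 genes were called, 4.37% of those tested. The irradiated arm was above the control arm for 505 of them (2.57%) and below it for 355 (1.8%). The higher genes changed more: their median log2 fold change was 1.05 and 270 of them reached 2-fold, against a median of -0.64 and 51 genes for the lower ones. The 3 libraries of one arm lay outside the range of the other for 846 of the 860, against 6735 of all genes (34.2%). The calls rest on these same libraries, so this separation is no further support for them. The calls depended on single libraries. Refits called 22 genes without control replicate 2, 53 without irradiated replicate 3 and 62 without irradiated replicate 1, all of them among the 860. Without control replicate 3, control replicate 1 or irradiated replicate 2, 257, 285 and 658 genes were called, of which 250, 264 and 544 were among the 860. With the Gm26917 level as a covariate 35 were called, while the median size of the log2 fold change of the 860 went from 0.80 to 0.69 and its median SE from 0.198 to 0.208. Upper quartile scaling called 757 higher and 341 lower. The direction of all 860 was kept in each of these fits.

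**Figure D1:**
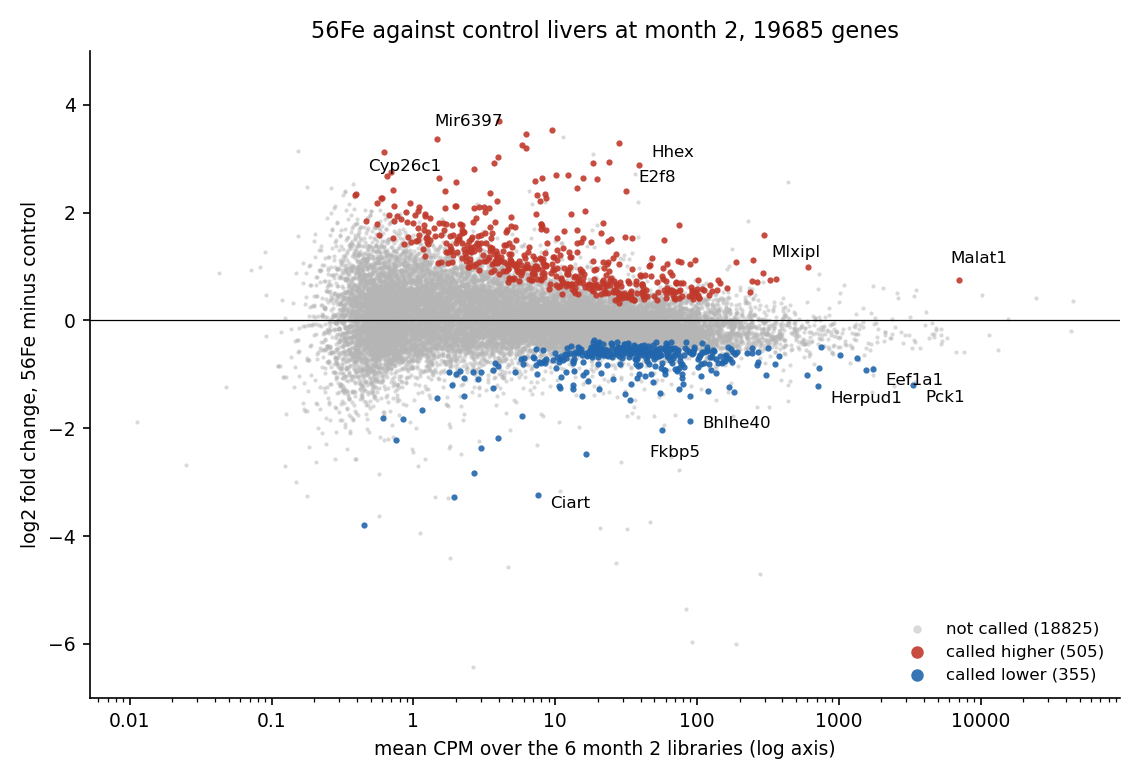
Log2 fold change (56Fe minus control) of each tested gene against its mean CPM over the 6 libraries, on a log axis; red genes were called higher (505), blue genes lower (355) and grey genes were not called. Of the genes called lower 88.2% have a mean of at least 10 CPM, against 47.5% of the genes called higher, which reach larger changes.

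Of 10 repressors of the circadian clock 4 were lower in irradiated livers and 0 higher, beside 1.8% of all genes called lower. Without 1 library at a time 1 to 4 of the repressors were called lower. In this clock the activators BMAL1 (Arntl) and CLOCK bind E-box sequences and switch on their own repressors, the Per, Cry, Rev-erb and Dec genes, which then shut them off in a daily cycle. Bhlhe40 (Dec1, chromosome 6, 108660629 to 108666925), a repressor that binds E-boxes, measured 110, 160 and 148 CPM in the 3 control livers, against 42.9, 38.1 and 33.0 CPM after irradiation. Every irradiated value lay below every control value, and the gene had the smallest adjusted p of all named genes (log2 fold change -1.87 ± 0.25 SE, adjusted p = 0.00086). Its paralogue Bhlhe41 (Dec2) was at 4.39, 8.17 and 6.84 against 0.784, 1.63 and 1.94 CPM (-2.19 ± 0.40, adjusted p = 0.00555). Per1, a period gene that is also induced by glucocorticoids, was at 33.9, 57.2 and 58.1 against 20.4, 15.4 and 18 CPM (-1.47 ± 0.31, adjusted p = 0.0133). Ciart (Chrono), a repressor of BMAL1, was at 3.41, 27.3 and 10.2 against 1.37, 1.38 and 1.57 CPM (-3.24 ± 0.74, adjusted p = 0.021). For Ciart and Per1 the lowest control was replicate 1, and for neither gene did the arms overlap.

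The list had a median of -0.56 against -0.02 over all genes. The other members did not pass: Per2 was at -0.06, Per3 at -0.70, Cry1 at 0.20, Cry2 at -0.42, Nr1d1 at -0.35 and Nr1d2 at -0.30 on the log2 scale. Of 10 clock output genes 1 passed (0 to 1 without 1 library at a time). This was Usp2, a ubiquitin protease gene with a strong daily rhythm, at 10.97, 45.9 and 26.7 against 3.27, 6.01 and 5.82 CPM (-2.48 ± 0.62, adjusted p = 0.0317). The output factor Dbp was at 21.8, 55.6 and 41.1 against 7.97, 22.4 and 14.03 CPM, and its arms overlapped (adjusted p = 0.184). Of 7 activator genes 0 passed by edgeR, with 3 at an unadjusted p under 0.05, 2 called by DESeq2 and 3 by limma voom. Npas2, a CLOCK paralogue, had the highest log2 fold change among them (1.32, adjusted p = 0.0659) and Arntl was at 0.75 (adjusted p = 0.223).

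The E-box is a 6-base palindrome, and it lies in the promoters of 3 of the called repressors. The 250 bases before the RefSeq start (GRCm38.p6) are shown 5′ to 3′ on the gene's strand, with each CACGTG in capitals. The stretches are chr11:69098699-69098948 (+) for Per1, chr6:145865421-145865670 (-) for Bhlhe41 and chr3:95882229-95882478 (-) for Ciart.
Per1: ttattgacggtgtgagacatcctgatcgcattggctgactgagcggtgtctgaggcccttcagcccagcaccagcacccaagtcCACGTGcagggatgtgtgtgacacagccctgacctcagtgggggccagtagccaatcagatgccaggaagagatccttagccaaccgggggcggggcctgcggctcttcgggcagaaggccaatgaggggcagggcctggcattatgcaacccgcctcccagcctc
Bhlhe41: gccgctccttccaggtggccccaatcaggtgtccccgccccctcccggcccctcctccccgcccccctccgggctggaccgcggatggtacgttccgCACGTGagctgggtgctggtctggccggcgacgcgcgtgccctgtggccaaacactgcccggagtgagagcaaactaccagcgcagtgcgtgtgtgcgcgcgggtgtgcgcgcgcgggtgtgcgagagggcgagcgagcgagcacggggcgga
Ciart: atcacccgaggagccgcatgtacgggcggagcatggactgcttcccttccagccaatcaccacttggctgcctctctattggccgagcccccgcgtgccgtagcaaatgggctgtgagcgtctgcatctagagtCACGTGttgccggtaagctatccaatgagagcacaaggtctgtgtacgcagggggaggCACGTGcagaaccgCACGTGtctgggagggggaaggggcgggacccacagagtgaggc
The motif was present once in Per1 and Bhlhe41 and 3 times in Ciart. In these windows it was found in 4 of 8 clock repressors with a RefSeq promoter (the fourth was Cry1), in 9.12% of 12735 tested genes with one, in 13.3% of 270 genes called lower and in 8.77% of 228 genes called higher. A match is a run of letters and says nothing of binding.

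Genes induced by glucocorticoids formed the list with the largest negative median among those with called members (-0.95 over 27 genes). Corticosterone, the stress hormone of mice, acts through the glucocorticoid receptor on these genes and peaks each day before activity. Fkbp5, a co-chaperone of the receptor and one of its most responsive targets, was at 51.3, 128 and 92.2 against 25.8, 15.3 and 25.01 CPM (-2.04 ± 0.40, adjusted p = 0.0113). Tsc22d3 (GILZ), an anti-inflammatory mediator, was at 267, 270 and 248 against 121, 114 and 76.0 CPM, so that control values were tight and the highest irradiated value was well under the lowest control (-1.33 ± 0.29, adjusted p = 0.0162). Tob2, an antiproliferative gene, passed as well (-0.95 ± 0.21, adjusted p = 0.0144), and with Per1 the list had 4 lower members (0 to 5 without 1 library at a time), beside 1.8% of all genes. The mineralocorticoid receptor Nr3c2 was its 1 higher member (0.43), and the glucocorticoid receptor Nr3c1 was at 114 ± 7.16 in controls and 107 ± 8.44 CPM in irradiated livers (SD, n = 3 each; adjusted p = 0.749). The metallothionein Mt1 had a far larger fold change, with values of 11.4, 374 and 163 against 2.81, 3.25 and 2.68 CPM, but the spread of the controls left it uncalled (adjusted p = 0.162).

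Of 28 genes of gluconeogenesis and fasting 4 were lower and 0 higher (median -0.56), beside 1.8% of all genes called lower. Without 1 library at a time 0 to 2 were called lower. Pck1, which commits carbon to glucose, was at 3594, 5209 and 5209 against 2424, 2000 and 1647 CPM, with no overlap (-1.21 ± 0.35, adjusted p = 0.0492). Slc37a4, the transporter that brings glucose 6-phosphate into the ER, was at 179, 213 and 177 against 117, 106 and 104 CPM (-0.80 ± 0.18, adjusted p = 0.0176). Tdo2, a tryptophan-degrading enzyme gene under glucocorticoid control, was at 1622, 1770 and 1644 against 901, 1215 and 970 CPM (-0.71 ± 0.19). Foxo3, a forkhead factor active in fasting, had a log2 fold change of -0.54 ± 0.14. G6pc, the enzyme gene downstream of Slc37a4, did not move with them: it was at 481, 261 and 308 against 753, 303 and 253 CPM, and its arms overlapped. Its pancreatic paralogue G6pc2, low in liver, was called higher (1.22, 1.90 and 2.23 against 2.55, 3.90 and 9.23 CPM; 1.52 ± 0.43, adjusted p = 0.041).

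Immediate early genes, which cells switch on within minutes of a stimulus, had a median of -0.79 over 33 members, of which 2 passed as lower. Over all genes 1.8% were called lower, and without 1 library at a time 0 to 2 members of the list were. Fos was at 0.731, 7.80 and 5.48 against 0.654, 0.650 and 0.646 CPM (-2.84 ± 0.80, adjusted p = 0.0465), so control replicate 1 was at the level of the irradiated livers and the other controls were above it. Klf10, a TGF-beta-inducible repressor, was at 36.4, 55.2 and 44.0 against 18.6, 14.1 and 19.7 CPM (-1.37 ± 0.30, adjusted p = 0.0173). The summed level of the list was 339, 849 and 662 CPM in control replicates 1, 2 and 3 and 284 to 393 CPM in irradiated livers. Control replicate 1 therefore lay inside the irradiated range for the list as a whole. The cell cycle regulator Sertad1 (6.91, 13.1 and 7.11 against 2.29, 3.01 and 2.58 CPM; -1.78 ± 0.32, adjusted p = 0.00511) and Fam107a, a stress-induced actin-binding gene (0.893, 6.64 and 3.05 against 0.523, 0.325 and 0.185 CPM; -3.27 ± 0.77), were also among the lower genes with the largest changes. Vcam1, an endothelial adhesion molecule, was lower too (-1.41 ± 0.39). In bulk tissue, fewer cells of a type and less RNA per cell cannot be told apart.

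**Figure D2:**
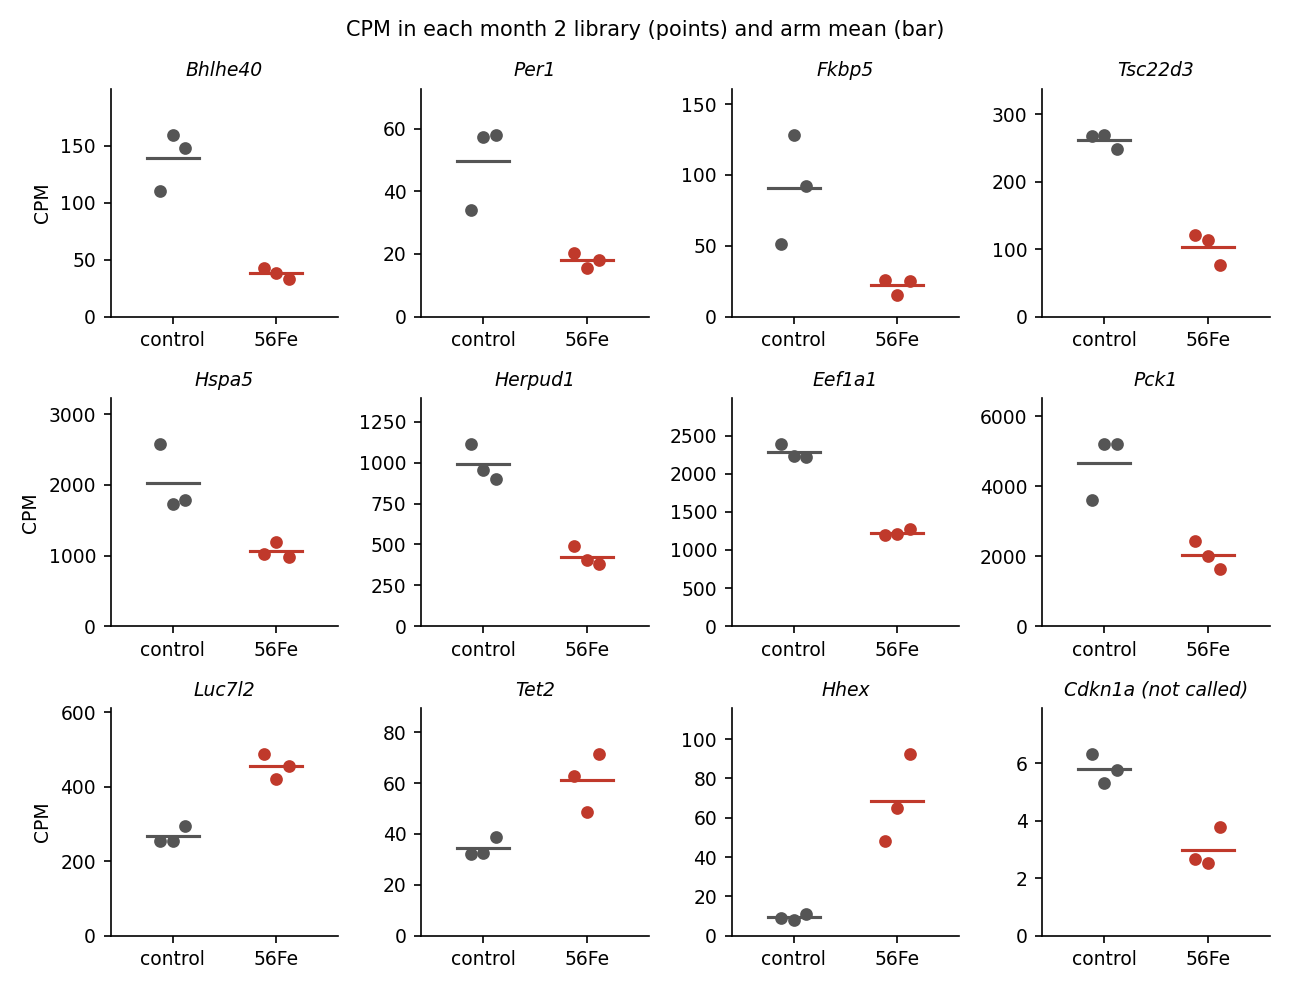
CPM of 12 genes in each of the 3 control (grey) and 3 irradiated (red) livers of month 2, with the arm mean as a bar and axes starting at 0. The arms are apart for all 12 genes drawn, including Cdkn1a, which was not called (adjusted p = 0.299), and the lowest control for Per1 and Fkbp5 is replicate 1.

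Among ER chaperones 4 of 27 genes were lower, and among ER stress sensors and degradation genes 6 of 31, with 0 higher; without 1 library at a time 0 to 1 and 1 to 3 were called lower. Secretory cells adjust ER folding capacity through the sensors ATF6, IRE1 and PERK, and cleaved ATF6 acts on the ER stress response element (ERSE) in chaperone promoters. Hspa5 (BiP), the main ER chaperone (chromosome 2, 34771970 to 34777547), measured 2578, 1727 and 1786 against 1020, 1198 and 983 CPM, without overlap (-0.93 ± 0.22, adjusted p = 0.019). Its co-chaperone Dnajb9 was at 173, 129 and 125 against 69.7, 84.2 and 54.6 CPM (-1.03 ± 0.28, adjusted p = 0.0391). Dnajc10, a disulfide reductase (-0.62 ± 0.18), and Cnpy2, an ER saposin-like protein gene (-0.52 ± 0.15), completed the 4 lower of 27 chaperones and folding enzymes. None was higher, the median was -0.50, and 22 of 27 had every irradiated value below every control value, against 18.6% of all genes.

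The ERSE consists of CCAAT, 9 bases of any kind and CCACG. The 250 bases before the start of Hspa5, chr2:34771840-34772089 (+), are shown with the element in capitals.
Hspa5: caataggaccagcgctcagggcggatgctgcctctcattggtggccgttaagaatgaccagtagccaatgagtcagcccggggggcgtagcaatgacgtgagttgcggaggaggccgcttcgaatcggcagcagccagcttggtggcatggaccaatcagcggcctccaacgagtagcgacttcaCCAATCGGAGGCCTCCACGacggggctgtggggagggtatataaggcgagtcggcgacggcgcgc
Searched on both strands of such windows (GRCm38.p6), the element was in 7 of 21 ER chaperone genes with a RefSeq promoter (33.3%) and in 23 of 12735 tested genes (0.18%). The elements of 6 of these genes, with the outer 5 bases at each end in capitals, are the following.
Hspa5: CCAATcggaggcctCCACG
Canx: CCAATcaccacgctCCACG
Calr: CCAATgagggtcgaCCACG
Pdia6: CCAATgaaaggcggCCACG
Dnajc3: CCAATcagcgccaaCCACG
Creld2: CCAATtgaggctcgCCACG
The log2 fold changes of these genes ran from -0.13 for the calcium-binding chaperone Calr (adjusted p = 0.737) and -0.37 for its membrane-bound relative Canx (adjusted p = 0.195) to -0.93 for Hspa5 and -1.28 for the disulfide isomerase Creld2 (adjusted p = 0.0804). Pdia6 was at -0.38 and Dnajc3 at -0.69, neither of them called. Genes that hold the element thus ranged from little change to the strongest change of the list, and of 270 promoters of genes called lower 1 held it, that of Hspa5.

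Among 31 ER stress sensors and degradation genes 6 were lower and 0 higher (median -0.39). Herpud1, which recruits the degradation complex of the ER membrane, was at 1115, 958 and 901 against 488, 407 and 382 CPM (-1.22 ± 0.22, adjusted p = 0.00407). Hspa13 was at 77.2, 66.8 and 72.7 against 41.3, 47.2 and 35.9 CPM (-0.80 ± 0.17), and the sensor gene Atf6 itself at 107, 134 and 145 against 81.0, 89.1 and 77.3 CPM (-0.64 ± 0.14, adjusted p = 0.0161). Edem2, Selenos and Ssr3, of ER degradation and translocation, had log2 fold changes of -0.54, -0.48 and -0.72. Bhlha15 (MIST1), a secretory cell transcription factor, was at 5.69, 5.54 and 3.99 against 1.24, 1.06 and 0.554 CPM (-2.38 ± 0.58, adjusted p = 0.0257). The integrated stress response list was mostly uncalled: 1 of 23 members passed, Ppp1r15b, a constitutive eIF2 phosphatase subunit (-0.57 ± 0.16). Its effectors Atf4 (59.4 ± 6.39 against 59.0 ± 5.99 CPM) and Ddit3 (9.65 ± 1.06 against 11.9 ± 2.07 CPM; SD, n = 3 each, control first) did not pass.

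Of 55 genes of traffic from the ER to the Golgi, a list drawn up after the values were seen, 11 were lower and 0 higher, with a median of -0.36. Without 1 library at a time 0 to 5 were called lower. Sar1a, the GTPase that starts COPII coats, was at 82.6, 92.3 and 90.7 against 54.5, 61.7 and 57.2 CPM (adjusted p = 0.0127), and the coat gene Sec24d at 121, 130 and 140 against 91.1, 95.7 and 72.5 CPM (adjusted p = 0.0258). The cargo receptors Surf4 (-0.63) and Mcfd2 (-0.60), the p24 protein gene Tmed2 (-0.64) and Arfgap3, which acts on COPI coats (-0.98), were lower as well. Mgat2, a Golgi enzyme gene of N-glycan branching, was at 60.9, 65.8 and 60.8 against 36.9, 34.0 and 23.7 CPM (-0.99 ± 0.15, adjusted p = 0.00132). Cytosolic heat shock genes had 2 of 28 lower: Hspa8, the constitutive HSP70, at 904, 835 and 676 against 373, 388 and 430 CPM (-1.02 ± 0.26, adjusted p = 0.0264), and the small heat shock gene Hspb8 (-0.97 ± 0.26). Without 1 library at a time 0 to 1 of the 28 were called lower.

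Cytosolic ribosomal protein genes, whose products make up both ribosomal subunits, formed the largest group of lower genes. Of 82 measured, 25 were lower and 0 higher, with a median of -0.61, and 69 had every irradiated value below every control value, against 18.6% of all genes. The summed level was 5907, 6860 and 5309 CPM in controls against 4010, 3746 and 3906 CPM. Rps4x was at 95.9, 98.6 and 96.0 against 51.4, 51.7 and 54.2 CPM (-0.89 ± 0.19, adjusted p = 0.0127), and Rps2 at 212, 213 and 174 against 127, 115 and 111 CPM (-0.76 ± 0.16). Rps21 had the lowest log2 fold change of the list (-1.18 ± 0.30), from 43.5, 63.4 and 35.5 to 20.9, 20.5 and 21.6 CPM. For none of the 3 did the arms overlap, and control replicate 2 was the highest library for each. Reads of ribosomal protein genes can be shared with their many processed pseudogenes, so single values are uncertain. Without 1 library at a time, 0 to 16 members of the list were called lower, while its median stayed between -0.74 and -0.51 over all settings tried.

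Of 41 translation factors 11 were lower and 1 higher, with a median of -0.36; without 1 library at a time 0 to 5 were called lower. Eef1a1, which delivers aminoacyl-tRNA to the ribosome, was at 2389, 2234 and 2217 against 1190, 1214 and 1272 CPM (-0.90 ± 0.19, adjusted p = 0.0127). Eif3h was at 52.3, 61.0 and 53.6 against 31.5, 35.8 and 31.7 CPM (-0.75 ± 0.17), Eef1d had a log2 fold change of -0.57 ± 0.13 and Eif4b of -0.58 ± 0.14. For each of these 4 genes the arms were apart. Many mRNAs of ribosomal proteins and elongation factors start with a pyrimidine tract and are controlled together. The 1 higher gene of that list, Hnrnpa1, is a splicing factor that was also counted there; it overlapped between arms (20.4, 19.8 and 25.6 against 34.7, 25.1 and 35.2 CPM; adjusted p = 0.0458). Mitochondrial ribosomal proteins had 2 of 76 lower, Mrpl34 (-0.72 ± 0.18) and Mrpl39 (-0.37 ± 0.10), with a median of -0.25. That count was near the 1.8% of all genes called lower. Of 37 proteasome subunits edgeR called 0, with 17 at an unadjusted p under 0.05, 2 lower by DESeq2 and 12 lower by limma voom; their median was -0.26.

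Of 79 nuclear genes of oxidative phosphorylation 6 were lower and 1 higher (median -0.35), beside 1.8% of all genes called lower. Without 1 library at a time 0 to 1 were called lower. The ATP synthase gene Atp5c1 was at 129, 134 and 116 against 78.8, 80.7 and 76.8 CPM (-0.68 ± 0.18, adjusted p = 0.0317), and Cox4i1 of complex IV at 149, 177 and 133 against 98.4, 97.0 and 90.6 CPM (-0.68 ± 0.19). Ndufv2 of complex I was lower by a similar amount (-0.65 ± 0.18). Atp5l, an ATP synthase subunit gene, was higher (9.42, 10.7 and 9.89 against 17.3, 14.6 and 21.1 CPM; 0.82 ± 0.23). The 7 mitochondrially encoded genes measured all had positive log2 fold changes, 0.34 to 0.60. By edgeR 0 passed and 0 had an unadjusted p under 0.05; DESeq2 called 0 and limma voom 1. The difference between the nuclear and the mitochondrial genes was not tested. mt-Nd4 was at 1597, 1538 and 1780 against 1922, 2739 and 2802 CPM (adjusted p = 0.24). The summed level of the 7 genes was 29731 to 37730 CPM in controls and 38442, 48587 and 48699 CPM in irradiated livers.

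Of 50 splicing and RNA processing genes 9 were higher and 0 lower, and without 1 library at a time 0 to 12 were called higher. The list had a median of 0.36, with 8 members below 0, and 29 had every irradiated value above every control value, against 15.6% of all genes. Luc7l2, a U1-associated factor, was at 253, 253 and 294 against 489, 419 and 455 CPM (0.77 ± 0.15, adjusted p = 0.00978). Rbm25, which regulates splice site choice, was at 115, 108 and 113 against 169, 147 and 180 CPM (0.56 ± 0.12, adjusted p = 0.0133). Luc7l3 (0.57 ± 0.13), the RNA helicase gene Ddx17 (0.53 ± 0.14), Pnn (0.67), Rbm5 (0.48), Srsf11 (0.54) and the SR protein kinase gene Clk2 (0.67) were higher as well. A second list of 36 SR-related and nuclear RNA-binding genes, chosen after the values were seen, had 20 of 35 measured members higher (0 to 22 without 1 library at a time) and 0 lower. It includes Leng8 (59.2, 55.2 and 60.8 against 137, 100 and 124 CPM; 1.05 ± 0.19) and Ogt, the gene of the enzyme that adds O-GlcNAc to nuclear proteins (117, 105 and 112 against 175, 179 and 188 CPM; 0.70 ± 0.13, adjusted p = 0.00811). Malat1, which resides in nuclear speckles with many of these proteins, was at 5469, 4533 and 5764 against 9750, 7943 and 8856 CPM (0.75 ± 0.19, adjusted p = 0.0245). Firre, an X-linked nuclear RNA, was higher too (0.73 ± 0.20), while Neat1 was not (-0.08, adjusted p = 0.955). The lower share of counts in protein-coding genes moved with these genes, and its part in the result was not tested.

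Chromatin regulators had 4 of 57 higher and 0 lower, with a median of 0.15. Tet2, which oxidises methylcytosine, was at 31.9, 32.6 and 38.8 against 62.7, 48.7 and 71.6 CPM (0.82 ± 0.14, adjusted p = 0.00263). The remodellers Chd2 (0.57 ± 0.12) and Chd6 (0.52 ± 0.11) and the bromodomain gene Baz2b (0.60 ± 0.17) were the others. Without 1 library at a time 1 to 6 of the 57 were called higher. The 4 called genes have long exon sequences, 14300 to 19093 bases. Of protein-coding genes with at least 7691 exon bases, 3.36% were called higher. The part of exon length in this result was not tested. Prkdc, the catalytic kinase of DNA end joining, was the 1 of 60 DNA repair genes that passed, at 38.3, 34.1 and 37.7 against 46.4, 50.9 and 47.0 CPM (0.39 ± 0.11, adjusted p = 0.0359). Over all genes 2.57% were called higher, so the count for DNA repair genes was near that share.

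**Figure D3:**
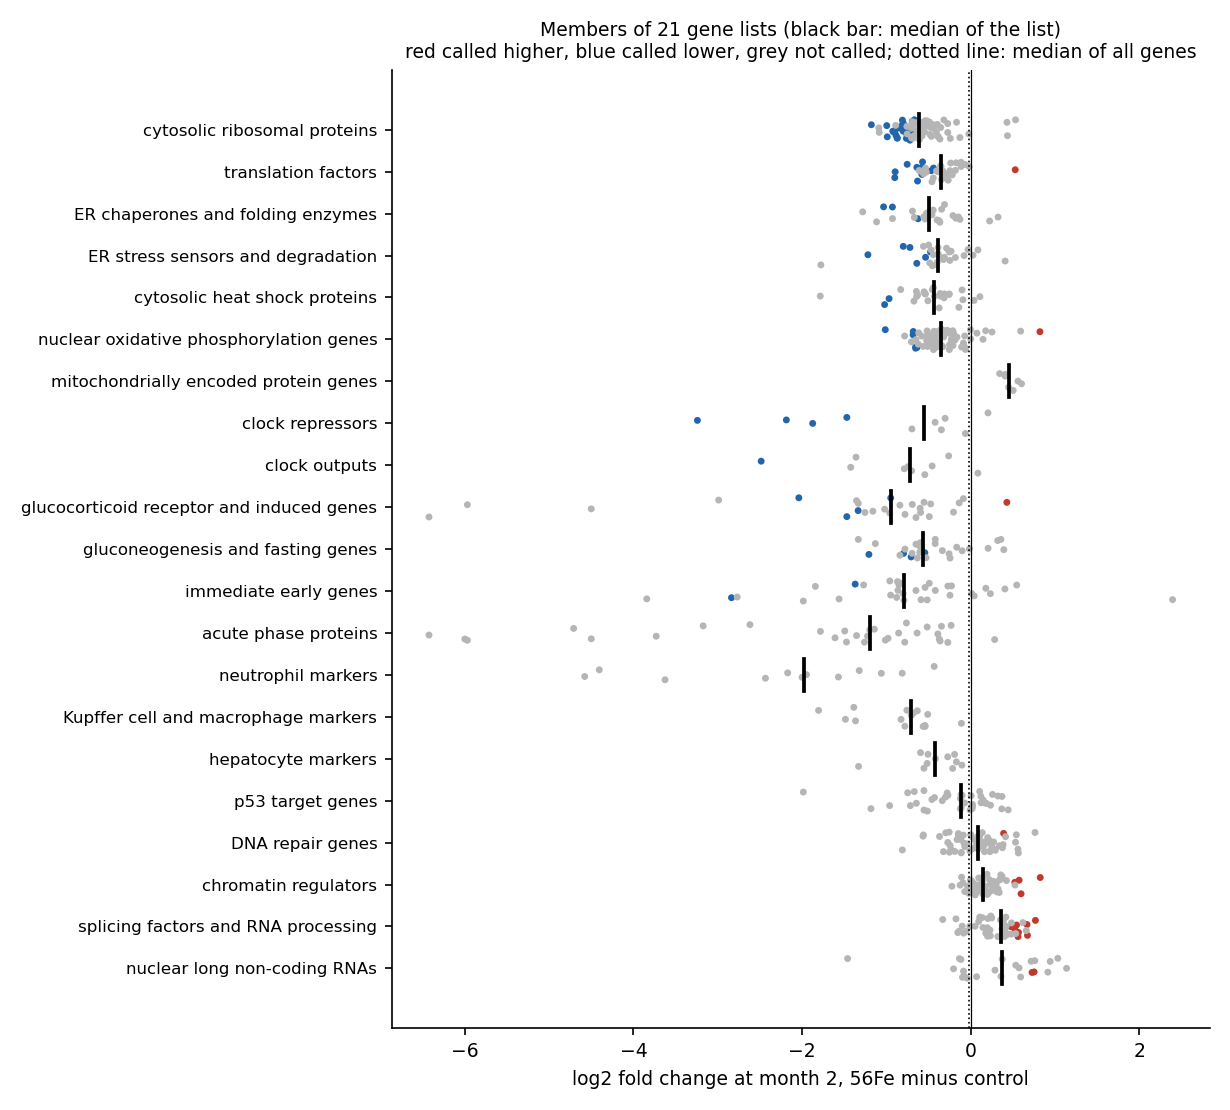
Log2 fold change (x axis) of the tested members of 21 gene lists (rows); red points were called higher, blue points lower, grey points were not called, and a black bar marks each list's median. Ribosomal, ER, clock repressor and glucocorticoid lists lie left of 0 (medians -0.61, -0.50, -0.56 and -0.95), splicing factors lie right of 0 (0.36), and p53 targets lie near 0 (-0.11).

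Outside protein-coding genes nearly every call was in the higher direction. Of the 505 higher genes 225 were protein coding, against 346 of the 355 lower ones. Small nucleolar RNA (snoRNA) loci, whose products guide modification of ribosomal RNA, had 19 of 98 called higher (19.4%) and 0 lower, with a median of 1.02. Antisense genes had 43 of 981 higher, sense intronic loci 15 of 156, transcript models still to be tested by experiment (TEC) 93 of 1184 and unprocessed pseudogenes 10 of 89, and 1 gene of these 4 classes was lower. The median of protein-coding genes was -0.10 against 0.46 for antisense genes and 0.53 for TEC. Snord15a, encoded in an intron of Rps3, was at 5.12, 6.27 and 9.07 against 32.3, 17.3 and 15.8 CPM (1.68 ± 0.41, adjusted p = 0.0279), while its host Rps3 was called lower (105 against 57.4 CPM on average, -0.87). Snora57 was at 2.11, 2.55 and 2.10 against 13.3, 4.79 and 4.43 CPM (1.74 ± 0.44). The share of Malat1 was higher and that of protein-coding counts lower in the irradiated arm, and their part in the result was not tested.

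**Figure D4:**
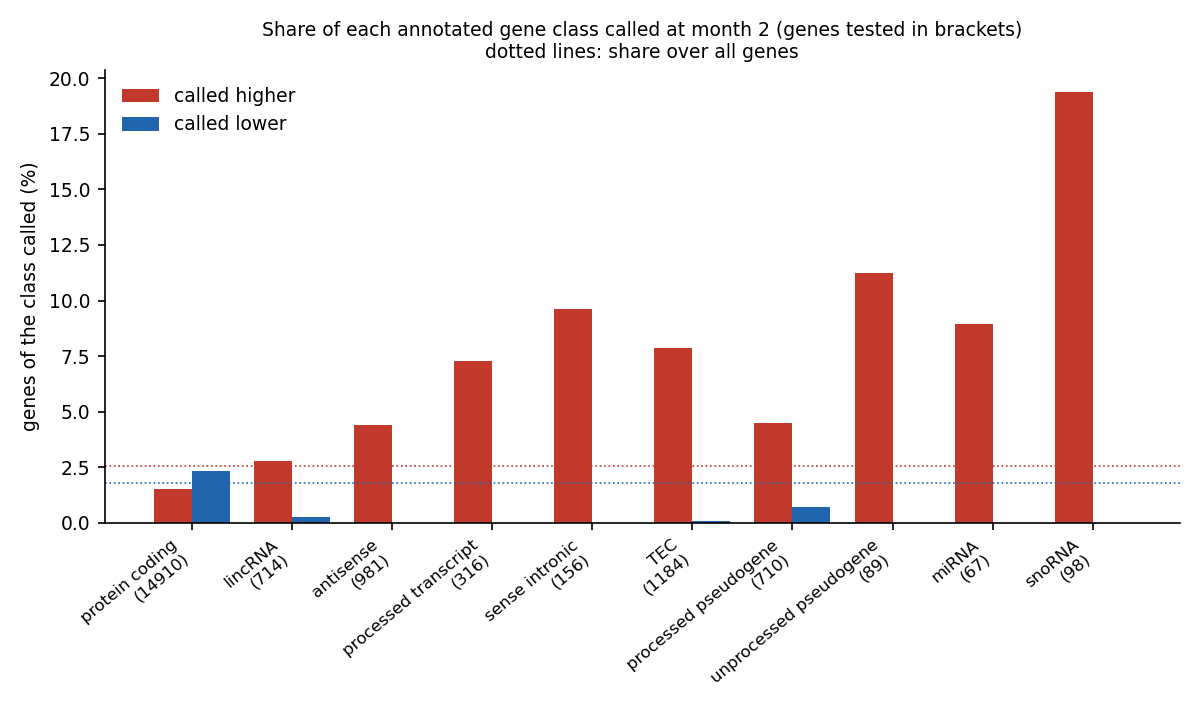
Percent of tested genes of each annotated class (x axis, number tested in brackets) that were called higher (red) or lower (blue), with the shares over all genes, 2.57% and 1.8%, as dotted lines. Protein-coding genes are the class with more lower than higher calls, and snoRNA loci have the tallest bar at 19.4%.

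Genes called higher often had another such gene nearby on the chromosome. Another higher gene lay within 50 kb of 147 of 503 higher genes (29.2%), against 7.5% of all tested genes. Loci that overlap each other counted as nearby. Among loci that are not protein coding the shares were 35.6% of the 278 called higher and 10.2% of all 4733 tested. For lower genes the shares were 4.2% and 5.3%. The largest runs held 6 genes each: one on chromosome 16 around the lncRNA Mir99ahg, and one on chromosome 8 across Nsd3, a histone methyltransferase gene (189, 135 and 146 against 472, 157 and 394 CPM; adjusted p = 0.0369), whose irradiated replicate 2 lay among the controls. Within the Nsd3 run the loci other than Nsd3 lie inside the span of that gene. On chromosome 5 (87351480 to 87379920), 4 loci annotated as pseudogenes or TEC had log2 fold changes of 2.63 to 2.92, and on chromosome 9 the zinc finger genes Zfp872 (1.54, 1.53 and 3.39 against 5.10, 6.91 and 8.86 CPM; 1.67 ± 0.38) and Zfp809 (1.05) were higher with 3 non-coding neighbours. Of runs of at least 4 genes with gaps of at most 100 kb there were 9 for higher and 0 for lower genes.

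Several of the largest changes were at loci that overlap abundant liver genes. Mir6397 (chromosome 4, 108087357 to 108087449) was at 1.14, 0.802 and 1.15 against 12.9, 4.47 and 16.8 CPM (3.46 ± 0.56, adjusted p = 0.00263). Its mature sequence from RefSeq, with the seed (bases 2 to 8) in capitals, is shown to identify the locus.
mmu-miR-6397: uGGAGACUuucaguggaguga
Scp2 and Podn lie across it on the opposite strand. Scp2, a lipid transfer protein gene, was not called (3399 against 2812 CPM on average), and Podn was (3.75 against 8.45 CPM, log2 fold change 1.16). Igf1os, opposite to the growth factor gene Igf1, was at 0.975, 0.948 and 1.69 against 5.56, 15.6 and 12.5 CPM (3.19 ± 0.69, adjusted p = 0.0163), while Igf1 was at 602 and 592 CPM on average (-0.02). Rapgef4os1 (2.10 ± 0.52), Gm16559, opposite to Adh1 (1.52), and Gm15883, opposite to Cyp2f2 (2.03), were higher while Rapgef4, Adh1 and Cyp2f2 were not called (-0.01, -0.17 and 0.04). The strand used for counting is not given in the sources used here, so reads of these loci cannot be told apart from reads of the genes across them, and library RNA was not selected for size, so the reads need not come from mature microRNAs.

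Among called genes annotated as protein coding the largest log2 fold change upward was that of Hhex, a homeobox gene needed for liver and bile duct formation, at 9.18, 7.73 and 10.8 against 48.0, 64.8 and 92.7 CPM (2.88 ± 0.62, adjusted p = 0.0163). For Hhex the month 2 controls lay below all the other 27 libraries of the series. Its mean at month 1 was 56.7 CPM in controls and 34.4 CPM in irradiated livers. Hhex and Gata4, another early liver factor (19.4, 15.1 and 18.7 against 29.2, 23.6 and 32.1 CPM; 0.67 ± 0.17), were the 2 of 27 hepatocyte transcription factors that passed. E2f8, an atypical E2F that limits the cell cycle and promotes polyploid hepatocytes, was at 13.5, 6.85 and 9.89 against 60.3, 24.7 and 74.7 CPM (2.40 ± 0.56, adjusted p = 0.0252). Rb1, the retinoblastoma gene, was the other member of 51 cell cycle genes to pass (14.8, 12.4 and 12.8 against 20.5, 20.2 and 22.3 CPM; 0.66 ± 0.13, adjusted p = 0.00902). Over all genes 2.57% were called higher. In E2f8, Zyg11a (11.8, 8.82 and 10.4 against 37.4, 15.8 and 42.7 CPM; 1.63 ± 0.31) and Mir6397, irradiated replicate 2 was the lowest of its arm. The gene of fibrocystin, Pkhd1, a protein of bile duct cilia, was at 25.2, 27.4 and 34.1 against 52.3, 46.8 and 55.0 CPM (0.83 ± 0.13, adjusted p = 0.00132), while 9 cholangiocyte markers had a median of -0.51, with 0 called by edgeR, DESeq2 or limma voom and 0 at an unadjusted p under 0.05.

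Of 35 retinoid genes 2 were higher. Cyp26c1, a retinoic acid hydroxylase gene on the chromosome of Hhex, 19, was at 1.87, 1.09 and 1.15 against 4.31, 3.17 and 11.8 CPM (2.22 ± 0.45, adjusted p = 0.00987). Adh7, a retinol-oxidising alcohol dehydrogenase gene, was at 43.9, 39.6 and 55.5 against 108, 81.1 and 110 CPM (1.10 ± 0.23, adjusted p = 0.0122). Cyp26a1, next to Cyp26c1, had its irradiated values inside the control range (30.1, 2.99 and 2.91 against 16.9, 10.5 and 20.1 CPM). Mlxipl (ChREBP), the glucose-sensing factor of lipid synthesis, was the 1 of 35 lipogenic genes that passed, at 191, 217 and 213 against 418, 309 and 410 CPM (0.87 ± 0.23, adjusted p = 0.0348). The count for lipogenic genes was near the 2.57% of all genes called higher.

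The p53 targets, a common readout of DNA damage, had 0 of 39 members called by edgeR and a median of -0.11. At an unadjusted p under 0.05 there were 8, and DESeq2 called 1 and limma voom 6, all lower. Cdkn1a (p21), which arrests the cell cycle, was at 6.34, 5.32 and 5.76 against 2.68, 2.52 and 3.78 CPM, so the irradiated values were the lower ones (-0.96 ± 0.53, adjusted p = 0.299). Mdm2, the p53 ubiquitin ligase gene, was at 45.2, 53.5 and 48.5 against 48.2, 51.3 and 49.6 CPM (0.02 ± 0.12). Phlda3 (-1.18 ± 0.58) and Eda2r (-0.11 ± 0.52) were near 1 CPM and not called.

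The metabolic lists below had 0 to 3 members called by edgeR each, all lower, beside 1.8% of all genes called lower. Of 46 xenobiotic cytochrome genes and their regulators 2 were lower: Por, which passes electrons to all microsomal cytochromes P450, at 266, 430 and 331 against 203, 170 and 227 CPM (-0.78 ± 0.18, adjusted p = 0.0187), and the flavin oxygenase gene Fmo5 at 757, 1137 and 927 against 369, 638 and 527 CPM (-0.88 ± 0.19). Of 47 conjugation genes 2 were lower, Papss2, which makes the sulfate donor (-0.64 ± 0.17), and the sulfotransferase gene Sult1d1 (-0.93 ± 0.25). Of 30 periportal genes 3 were lower, Pck1, the mitochondrial ornithine carrier gene Slc25a15 (-0.58 ± 0.16) and the proline oxidase gene Prodh (-0.70 ± 0.19), against 0 of 26 pericentral genes by edgeR or DESeq2, 2 by limma voom and 0 at an unadjusted p under 0.05; medians were -0.39 and -0.14, and the difference between these lists was not tested. The list of iron, zinc and manganese handling had 2 of 31 lower, the ferritin heavy chain Fth1 (433, 504 and 419 against 255, 256 and 264 CPM; -0.81 ± 0.22) and the iron sensor gene Hfe (-0.61 ± 0.16). PPAR-alpha targets (44), cholesterol synthesis (26) and bile acid genes (31) had 0 members called by edgeR, with 5, 3 and 2 at an unadjusted p under 0.05. DESeq2 called 1 in each and limma voom 7, 3 and 2. The closest by edgeR was Cpt1a, the gate of fatty acid entry into mitochondria, at 421, 430 and 425 against 324, 250 and 277 CPM (adjusted p = 0.0504).

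Acute phase, neutrophil and macrophage lists had negative medians without a gene called by edgeR. Acute phase proteins, which hepatocytes release in inflammation, had a median of -1.20 over 31 members, 24 of them with every irradiated value below every control value, against 18.6% of all genes. By edgeR 0 were called and 6 had an unadjusted p under 0.05, while DESeq2 called 4 and limma voom 3, all lower. Saa4 was at 301, 637 and 513 against 143, 164 and 169 CPM (adjusted p = 0.102), and Orm3 at 7.64, 41.3 and 9.14 against 1.11, 2.68 and 2.77 CPM (adjusted p = 0.126). Neutrophil markers had a median of -1.97 over 12 genes; 4 had an unadjusted p under 0.05, and edgeR called 0, DESeq2 2 and limma voom 3. Their summed level was 10.1, 64.2 and 22.1 CPM in control replicates 1, 2 and 3 and 7.48 to 8.63 CPM in irradiated livers, with control replicate 2 far above the rest. The marker gene S100a9 made up a large part of this, at 0.812, 21.7 and 4.27 against 0.261, 0.487 and 0.369 CPM. Kupffer cell and macrophage markers were all 15 below 0 (median -0.71); 3 had an unadjusted p under 0.05, and edgeR and DESeq2 called 0 and limma voom 2. Their sum was 690, 431 and 338 CPM against 310, 300 and 252 CPM. Interferon-stimulated genes had a median of 0.03 over 40, with 4 at an unadjusted p under 0.05, 0 called by edgeR, 1 by DESeq2 and 3 by limma voom. Gbp11, a guanylate-binding protein gene annotated as a polymorphic pseudogene, was at 6.74, 3.86 and 5.15 against 55.8, 14.9 and 83.5 CPM (3.29 ± 0.93, adjusted p = 0.048) and was the 1 of 19 members of its family that passed. Sinusoidal endothelium (12), stellate cell (14), T and NK cell (14) and erythroid markers (8) had 0 called by edgeR, with 3, 4, 0 and 5 at an unadjusted p under 0.05. DESeq2 called 1, 0, 0 and 2 of them and limma voom 3, 2, 0 and 2. Erythroid markers summed to 112, 128 and 146 against 75.6, 79.6 and 88.0 CPM, with a median of -0.95. Stellate cell markers summed to 417 to 482 against 384 to 409 CPM, so the arms were apart for both. Endothelial markers summed to 485 to 520 against 520.5 to 535 CPM, and T and NK cell markers to 11.04 to 12.2 against 10.6 to 12.0 CPM.

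The other times of the series use other mice and share no library with month 2. Composition and depth differed between times. Gm26917 took up 3.04% to 7.57% of month 1 counts and 3.32% to 6.93% of month 2 counts. Its share was 0.452% to 2.04% in libraries of months 4, 9 and 12. Protein-coding shares were 83.1% to 91.9%, 86.9% to 92.9% and 94.1% to 97.25% in the same order. Month 1 depth was 7995248 to 12844872 counts. The part of these differences in the shared calls, kept signs and list medians was not tested. Of the 505 genes called higher at month 2, 41 were also called higher and 13 lower at month 1, and 56 and 1 at month 4. Of the 355 lower genes, 60 were also called lower and 2 higher at month 1, and 52 and 1 at month 4. These numbers stand against 906 genes called at month 1 (4.6%, 1.49% higher and 3.11% lower) and 708 at month 4 (3.6%, 1.82% higher and 1.77% lower). At month 9 14 of the higher genes were called higher and 1 lower, and of the lower genes 1 was called lower and 3 higher, of 326 calls (1.66%, 1.16% higher and 0.498% lower), and at month 12 edgeR called 0 genes (0%), with 2648 at an unadjusted p under 0.05. The sign was kept by 59.8% of the higher and 87.0% of the lower genes at month 1, against 58.3% of all genes. At month 4 it was kept by 87.1% and 89.3%, against 65.4%, and at month 9 by 69.5% and 43.1%, against 53.1%. At month 12 the shares were 31.7% and 27.6%, against 42.6%.

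The months at which single lists were low were not the same. Hspa5 was called lower at months 2 and 4 (-0.93 and -1.67) and was at 0.54 at month 1 without passing, and ER chaperones had medians of 0.26, -0.50, -0.68, 0.14 and 0.24 at months 1, 2, 4, 9 and 12. Bhlhe40 was lower at months 1 and 2 (-1.27 and -1.87), and clock repressors had their lowest median at month 1 (-1.20). Ribosomal protein genes had medians of -0.05, -0.61, -0.32, -0.02 and 0.08, and the glucocorticoid list 0.48, -0.95, -0.28, 0.41 and -0.24. Splicing factors were at 0.03, 0.36, -0.12, 0.31 and -0.11. Whether these list medians differ between times was not tested. Some genes stood outside every other library of the series. All 3 irradiated libraries of month 2 lay above the other 27 libraries for 40 of the 505 higher genes, against 129 of all genes tested (0.655%). All 3 controls lay below the other 27 for 6 of them, against 14 of all genes (0.0711%). Of the 355 lower genes, the irradiated libraries lay below the rest for 4 (0.0559% of all genes) and the controls above it for 2 (0.066% of all genes). The called genes were chosen on these same month 2 libraries, so these counts are no separate support for the calls.

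**Figure D5:**
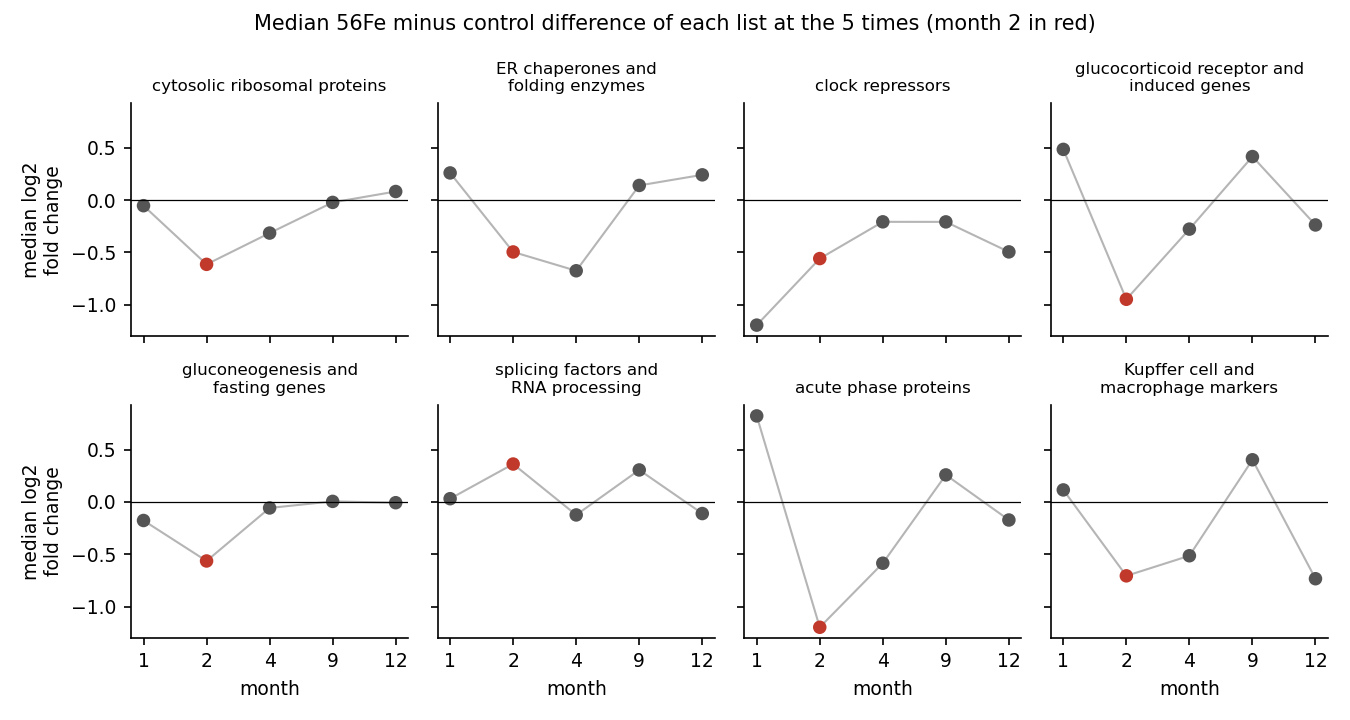
Median log2 fold change (56Fe minus control) of 8 gene lists at months 1, 2, 4, 9 and 12, with month 2 in red; each point compares 3 with 3 libraries that no other point uses. The glucocorticoid and acute phase medians are above 0 at month 1 and below 0 at month 2, and ER chaperones are lowest at month 4.

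A test of single genes asked whether the month 2 effect differed from the mean effect at the other 4 times. By edgeR 16 genes passed, 0.0813% of those tested, 12 with a more positive and 4 with a more negative effect, and 2547 had an unadjusted p under 0.05. All 16 were also called at month 2. Tsc22d3 stood at -1.33 at month 2 and at 1.20, -0.47, 0.61 and 1.00 at months 1, 4, 9 and 12, a difference of -1.92 ± 0.33 (adjusted p = 0.0288). Its mean was 44.7 CPM in controls and 102.5 CPM in irradiated livers at month 1, and 262 and 103.8 CPM at month 2. Between these months the irradiated means were thus near each other and the control means were far apart. Pkhd1 stood at 0.83 against -0.07, 0.13, -0.18 and 0.20, a difference of 0.81 ± 0.14 (adjusted p = 0.0288). Its mean was 50.3 CPM in controls and 48.05 CPM in irradiated livers at month 1, 28.9 and 51.4 CPM at month 2, and 25.4 and 27.7 CPM at month 4. Klhl21, an adaptor of a ubiquitin ligase (48.2, 67.7 and 58.8 against 29.2, 28.8 and 27.04 CPM), and Cln8, an ER cargo receptor for lysosomal enzymes (48.3, 52.0 and 53.7 against 26.4, 27.3 and 19.3 CPM), were more negative at month 2 than at the other times. At month 1 the means of control and irradiated livers were 25.04 and 21.2 CPM for Cln8 and 39.35 and 27.35 CPM for Klhl21. For Pkhd1 and Cln8 the irradiated livers of month 2 were thus near the month 1 livers of both arms. Hemk1, a methyltransferase gene (8.93, 8.17 and 8.73 against 13.1, 12.8 and 16.4 CPM), and Scarna13, a Cajal body RNA (13.9, 12.5 and 15.6 against 28.1, 29.7 and 31.4 CPM), were more positive. Scarna13 had month 1 means of 11.4 CPM in controls and 19.95 CPM in irradiated livers, and Hemk1 of 14.4 and 9.96 CPM. Bhlhe40 did not pass this test (adjusted p = 0.054). Without 1 month 2 library at a time the count ran from 0 (without control replicate 2 or irradiated replicate 1) to 46 (without irradiated replicate 2).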

How the data were processed

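Liver RNA was sequenced by the submitters as 30 libraries, of which 3 irradiated and 3 control libraries of month 2 are compared here. The authors deposited 1 table of raw counts, a row for each Ensembl identifier. The counts came from STAR 2.5.3a on GRCm38 and Gencode release M14, per the labels and the series' design text. The strand column and any filter are not given in the sources used here. Samples were grouped by their labels. Of 51826 identifiers, 51633 matched a Gencode annotation of the same build, which gave symbols, positions and classes. Genes passed edgeR 4.0.16's filterByExpr (minimum count 10, minimum total 15), were scaled by TMM and fitted by quasi-likelihood over all 30 libraries, with Benjamini-Hochberg adjustment over 19685 genes. CPM values (over tested genes, with TMM-scaled library sizes) and log2 fold changes (56Fe minus control, ± SE, with its adjusted p) were computed here from the deposited counts. The fit was tested on simulated data. Both month 2 arms were drawn there from the same mean, apart from a set of genes changed by known folds. The simulation did not carry the composition difference between the real arms, so it cannot show how that difference bears on the calls. No libraries were duplicates: chi-square per gene between replicates was 8.43 to 26.1. Samples of the same replicate number did not pair at month 2 (correlations of 0.0153, -0.0353 and 0.0215).

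The named genes are the 15 called genes with the largest change in each direction (mean at least 1 CPM, arms apart), the 10 with the smallest adjusted p, up to 4 called members of each list or 2 uncalled ones, 4 p53 targets and the 5 with the smallest adjusted p for the difference from other times, predicted genes left out. Members and lists were chosen with earlier results of these data known. Alternatives were other scaling, filters, DESeq2 1.42.0, limma 3.58.1 (voom), fewer libraries, a replicate block, Gm26917 as a covariate and each library left out; a fit of protein-coding genes only was chosen after seeing the data. Counts per library limit precision, and no value here is corrected for sampling hour.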

Additional observations from a re-analysis of the deposited data

Results flagged for a closer look

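The effect at month 2 differed from the mean effect at months 1, 4, 9 and 12 by edgeR's test of that difference (adjusted p under 0.05) for 16 genes. Of the protein-coding ones, Pkhd1 (0.81), Hsd3b3 (1.22), Hemk1 (0.89), Zfp697 (1.41), Ogt (0.74) and Pibf1 (0.73) had a more positive log2 fold change at month 2. Tsc22d3 (-1.92), Klhl21 (-0.94), Cln8 (-0.97) and Tmc7 (-1.40) had a more negative one. The non-coding loci Mir6397 (3.65), Gm15962 (3.14), Scarna13 (1.24), Gm16559 (2.19), 4921518K17Rik (2.24) and Gm15883 (1.69) were more positive. Zfp697 and Hsd3b3 lie in 1 run of 4 higher genes on chromosome 3, between 98286988 and 98763127.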

How the results depend on the processing

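All 860 calls kept their direction wherever they were tested, but their number did not. Against 860 called (505 higher, 355 lower, 16 differing from other times), the 6 month 2 libraries alone gave 3026 (1557 and 1469), limma voom 3667 (1858 and 1809, 819 differing), DESeq2 1442 (864 and 578, 202), the 12 libraries of months 1 and 2 1487 (952 and 535), and a fit with no low-count filter 576 (303 and 273, 46). The Gm26917 covariate gave 35 (24 and 11), a filter of 1 CPM in 3 libraries 1096 (653 and 443, 25), upper quartile factors 1098 (757 and 341, 18) and protein-coding genes only 513 (319 and 194, 10). With the replicate block the counts were 1327 (646 and 681, 54); the labels tie no number to a shared litter or day, and a library correlated best with its own number in 1 of 3 cases. Leaving out 1 library gave 22 to 658 called, 14 to 479 higher, 8 to 179 lower and 0 to 46 differing; the cause was not tested. Of 95 called genes named by the rule 0 changed sign and 10 were called in every alternative in which they were tested (17, or 16 for Mir6397). Of 51 uncalled ones 6 changed sign. Cfd was at -0.006 with limma voom and at -0.173 to 0.259 without 1 library. Cela2a was at -0.026 with no filter, -0.485 with the covariate and -0.149 to 0.166 without 1 library. Without 1 library Actn3 was at -0.026 to 0.949 and Myh4 at -0.615 to 0.154. Mdm2 was at -0.014 with no filter and -0.032 to 0.077 without 1 library, and Eda2r at 0.226 with the covariate and -0.373 to 0.16 without 1 library. Of 5 equal groups of protein-coding genes by level, 0.268% were called in the lowest and 7.14% in the highest.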

Other observations

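The direction of the calls among protein-coding genes went with exon length. Of 5 equal groups, the one with the shortest exon sequence (up to 2545 bases) is taken first. In it 13 genes were called higher and 98 lower, and in the group with the longest (from 7691 bases) 100 were called higher and 26 lower. The median log2 fold change ran from -0.20 in the shortest to -0.01 in the longest group. The part of exon length in the ribosomal, oxidative phosphorylation, splicing and chromatin results was not tested.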
